A study of Mus musculus with 2 samples.

Results

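The 10 genes described here build and regulate the MHC class I presentation pathway: the heavy chains H2-D1, H2-K1 and H2-T23, the light chain B2m, the transactivator Nlrc5, the peptide transporter genes Tap1 and Tap2, the loading factor Tapbp, and the immunoproteasome subunits Psmb8 and Psmb9. They were chosen by symbol from the 32285 genes listed in both matrices, and each symbol had 1 row. They were measured by single-cell RNA sequencing of MC38 tumours, which grow from a mouse colon adenocarcinoma cell line. One library came from tumours labelled Mbtps1 KD, called knockdown here, and 1 from tumours labelled Mbtps1 WT, called control here; the series text calls the first group knockout. Mbtps1 encodes site-1 protease, a Golgi enzyme that releases SREBP and ATF6 transcription factors from membranes. The labels give no strain, sex or age of the host mice, no way in which Mbtps1 was lowered, no clone and no number of mice, so what besides Mbtps1 separates the groups cannot be told apart from it. With 1 library per group there was no replicate and no test; every interval below is an exact 95% interval that covers counting error only.

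MHC class I molecules show peptides from inside the cell to CD8 T cells. The proteasome cuts proteins into peptides, and under interferon-gamma Psmb8 and Psmb9 replace catalytic subunits of the constitutive proteasome. Tap1 and Tap2 form the transporter that carries the peptides into the endoplasmic reticulum, where tapasin, the product of Tapbp, helps to load them onto a heavy chain paired with beta-2 microglobulin, the product of B2m. H2-K1 and H2-D1 encode the classical heavy chains, which present to T cells; H2-T23 encodes Qa-1, a non-classical heavy chain read by the inhibitory receptor NKG2A on NK and CD8 T cells. Nlrc5 is induced by interferon-gamma, binds no DNA itself, and acts on class I promoters with the RFX complex, CREB/ATF factors and NF-Y, which sit on the neighbouring X and Y boxes.

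Of the 10 genes, 8 lie on chromosome 17, B2m lies on chromosome 2 and Nlrc5 on chromosome 8, in GENCODE vM21. Promoters of 8 of the 10 genes were matched by symbol in RefSeq, on build GRCm38.p6. The 250 bases before the start site are shown for the heavy chains and for B2m, because the heavy chains and B2m pair in 1 molecule and yet differed in their ratios between the libraries. Capitals mark matches, on either strand, to TGACG (the core of the X2 box), CCAAT (the Y box, read ATTGG on the other strand), GGGANTNNC (an NF-kB core) and TTTCNNTT (a core of interferon response elements). In H2-D1 and H2-K1 the GGGANTNNC matches on both strands cover the same bases.
H2-D1, chr17:35262844-35263093, plus strand: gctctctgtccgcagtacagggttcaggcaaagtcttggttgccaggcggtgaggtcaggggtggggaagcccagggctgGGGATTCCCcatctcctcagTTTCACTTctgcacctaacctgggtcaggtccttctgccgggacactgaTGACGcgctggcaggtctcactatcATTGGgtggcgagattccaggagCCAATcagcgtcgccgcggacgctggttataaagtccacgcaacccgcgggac
H2-K1, chr17:34000334-34000583, minus strand: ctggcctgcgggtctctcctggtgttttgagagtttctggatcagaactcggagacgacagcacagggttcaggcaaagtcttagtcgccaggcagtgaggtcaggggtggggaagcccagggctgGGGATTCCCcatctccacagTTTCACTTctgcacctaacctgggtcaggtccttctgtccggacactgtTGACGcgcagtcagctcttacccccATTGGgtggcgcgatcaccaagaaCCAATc
H2-T23, chr17:36032702-36032951, minus strand: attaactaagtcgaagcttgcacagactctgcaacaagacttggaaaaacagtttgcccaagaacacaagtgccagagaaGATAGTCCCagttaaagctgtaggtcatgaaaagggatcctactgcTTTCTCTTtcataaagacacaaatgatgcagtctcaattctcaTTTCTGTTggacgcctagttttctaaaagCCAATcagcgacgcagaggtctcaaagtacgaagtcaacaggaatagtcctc
B2m, chr2:122147437-122147686, plus strand: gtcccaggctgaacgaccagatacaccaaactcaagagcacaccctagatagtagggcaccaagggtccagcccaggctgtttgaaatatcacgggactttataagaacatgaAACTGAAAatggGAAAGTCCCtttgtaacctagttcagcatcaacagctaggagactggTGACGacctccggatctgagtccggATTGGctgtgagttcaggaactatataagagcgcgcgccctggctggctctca
In H2-D1, H2-K1 and B2m, ATTGG began 25 bases after the first base of TGACG. That arrangement was found in 30 of 32536 distinct mouse promoters of the same length, or 0.0922%, and among the matched genes it was found in these 3. H2-D1 and H2-K1 also shared GGGATTCCC followed by TTTCACTT, and H2-T23 had CCAAT, TTTCNNTT and GGGANTNNC matches and no TGACG match. On its own CCAAT was found in 33.8%, TTTCNNTT in 21.3%, TGACG in 17.9% and GGGANTNNC in 11.8% of the same promoters, so these single matches are common. The letters searched were chosen after the promoters were seen, and a match describes the sequence only. The spacing of 25 bases was the only one counted and is that of these 3 promoters, so its share is no independent support.

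The libraries held 174190399 UMIs for knockdown and 177399315 for control, and after filtering 16094 knockdown and 11021 control cells, more than the about 6000 cells loaded per channel in both. Cells had a median of 4795 UMIs in knockdown and 8207 in control, and the libraries shared 46 cell barcodes. Clusters were formed without any of the 10 genes and named from marker genes, which gave 9 classes with at least 50 cells in each library. Levels are given as CPM, which here means UMIs of the gene per 1000000 UMIs of all cells of a class in a library. Mbtps1 in tumour-like cells was at 12.4 CPM in knockdown and 29.0 CPM in control, a ratio of 0.426 (0.398 to 0.455), while in macrophage/monocyte-like cells it was at 18.7 and 18.9 CPM. Tumour-like cells numbered 6544 in knockdown and 4311 in control, with median depths of 14259 and 22086 UMIs. They were called from at least 3 of 16 tumour markers, H19, Ogn, Itgbl1 and Phgdh among them, and from low Xist. Over the class Xist was at 3.63 CPM in knockdown and 3.74 CPM in control. Cluster 3 had 3 of the markers, the minimum, and cluster 13 had Xist at 17.5 CPM, where the limit was 20 CPM. The markers Mest, Igf2, Lgals7 and Prss23 lay under 20 CPM over the class in both libraries. The colon epithelial keratins Krt8 and Krt18, on the same list, were nearly absent, Krt8 at 0.559 CPM in knockdown and 0.253 CPM in control. These cells thus did not carry the epithelial keratins of a colon carcinoma. In the same cells 13 fibroblast markers summed to 1479 CPM in knockdown and 2528 CPM in control, 18 T cell markers to 26.2 and 25.3 CPM, and 10 B and plasma cell markers to 80.9 and 194 CPM. There 18 macrophage/monocyte markers summed to 312 CPM in knockdown and 325 CPM in control, and 16 dendritic markers to 108 and 120 CPM. Markers of the class itself differed too, with H19 at a ratio of 0.301, Ogn at 0.408 and Gfra2 at 3.12; the part of these differences in the results below was not tested.

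Tumour-like cells of the knockdown library held fewer heavy chain transcripts and more Nlrc5 transcripts by share of all UMIs, while B2m was near equal. H2-D1 was at 1260 CPM in knockdown and 1938 CPM in control tumour-like cells, a ratio of 0.650 (0.646 to 0.655). H2-K1 was at 1167 CPM in knockdown and 1584 CPM in control, a ratio of 0.737 (0.731 to 0.742). H2-T23 was at 14.2 CPM in knockdown and 24.7 CPM in control, a ratio of 0.574 (0.537 to 0.612). All 3 heavy chains were therefore lower in the knockdown library by more than counting error, H2-T23 from a level far under that of any other class. H2-D1 made up 51.6% of the UMIs of these 3 heavy chains in knockdown and 54.6% in control, with H2-K1 at 47.8% and 44.7%. Mouse class I heavy chains are near-identical in stretches, and the labels do not say how reads that match several of them were assigned, so the split among heavy chain genes is uncertain.

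B2m, the chain that every class I heavy chain needs, was at 2798 CPM in knockdown and 2865 CPM in control tumour-like cells, a ratio of 0.977 (0.972 to 0.982). Among cells of 10000 to 20000 UMIs in both libraries the ratio was 0.852 for B2m, 0.551 for H2-D1 and 0.618 for H2-K1. The clusters of tumour-like cells, described below, differed in depth, and their mix within this window was not tested. Set against B2m within each library, which needs no scaling to library size, H2-D1 and H2-K1 together had 0.867 UMIs per B2m UMI (0.863 to 0.872) in knockdown and 1.23 (1.22 to 1.24) in control. Nlrc5 was at 72.3 CPM in knockdown and 51.6 CPM in control, a ratio of 1.40 (1.35 to 1.45), from 7242 and 5312 UMIs. The activator and the heavy chains it is known to act on thus differed in opposite directions between these 2 libraries. With each cell thinned to 1000 UMIs, to set the libraries at the same depth, H2-D1 was seen in 69.3% of knockdown and 81.5% of control tumour-like cells, H2-K1 in 64.9% and 75.3%, B2m in 90.9% and 91.1%, and Nlrc5 in 7.26% and 4.86%. Unthinned, Nlrc5 was seen in 50.8% of knockdown and 52.6% of control cells, whose depths differ, and H2-D1 in 98.6% and 99.5%. Every class expresses class I genes, so no class gives a share for free RNA alone; free RNA was estimated at 3.54% of tumour-like UMIs in knockdown and 2.22% in control. H2-T23 stood at 87.5 CPM in empty droplets of the knockdown library and 123 CPM in those of the control library, above its level in tumour-like cells, and its ratio was 0.511 with free RNA subtracted.

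The transporter and loading genes differed less. Tap1 was at 93.2 CPM in knockdown and 97.7 CPM in control tumour-like cells, a ratio of 0.954 (0.927 to 0.981), and Tap2 at 99.4 CPM and 111 CPM, a ratio of 0.896 (0.873 to 0.921). Tapbp was at 213 CPM in knockdown and 264 CPM in control, a ratio of 0.808 (0.794 to 0.823), just short of the mark used for the counts below. Psmb8, which supplies the chymotrypsin-like site of the immunoproteasome, was at 701 CPM in knockdown and 822 CPM in control, a ratio of 0.852 (0.843 to 0.860). Psmb9 was at 216 CPM in knockdown and 232 CPM in control, a ratio of 0.931 (0.914 to 0.948). The ratio of the immunoproteasome subunits Psmb8, Psmb9 and Psmb10 to the constitutive subunits Psmb5, Psmb6 and Psmb7 was near equal, at 1.99 UMIs per UMI (1.97 to 2.01) in knockdown and 2.06 (2.04 to 2.08) in control, with the constitutive Psmb6 itself at a ratio of 0.853.

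A gene was counted as higher where its CPM in knockdown was at least 25% above that in control, and as lower where it was at least 20% below, which is the same fold. In tumour-like cells 3 of the 10 genes were lower in knockdown (H2-D1, H2-K1 and H2-T23), where 11.1% of the 15320 genes with at least 50 UMIs were lower. One of the 10, Nlrc5, was higher, where 22.3% of all genes were higher. The median log2 ratio was -0.19 over the 10 genes and 0.07 over all genes. In either direction 4 of the 10 genes passed the mark, where 33.4% of all genes did.

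**Figure D1:**
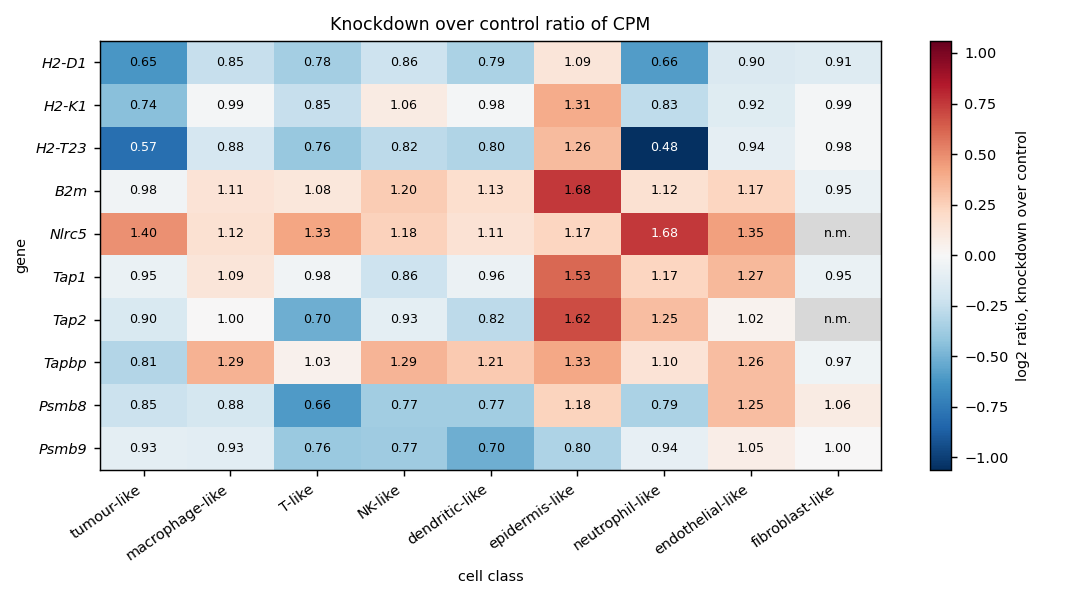
Ratio of CPM, knockdown over control, for each gene (rows) in each cell class (columns), with the colour giving the log2 ratio and n.m. marking genes under 50 UMIs. H2-D1 was under 1 in 8 of 9 classes, Nlrc5 over 1 in all 8 classes measured, and the epidermis-like column stands apart with B2m at 1.68.

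Tumour-like cells were made of 6 clusters, whose sizes differed between the libraries. Cluster 4, led by Mfap4, H19, Aspn and Ogn and also by the fibroblast markers Dpt and Dcn, held 11.7% of knockdown and 40.3% of control tumour-like cells, and dividing cells led by Hist1h1b, Ube2c and Top2a (cluster 2) held 29.3% and 19.2%. Cluster 4 also had the highest H2-D1 of the 6 clusters, at 1962 CPM in knockdown and 2507 CPM in control, and the highest B2m, at 4166 and 3584 CPM. The class totals therefore mix levels within clusters with the sizes of the clusters.

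Within clusters H2-D1 and H2-K1 were lower in knockdown in all 6. The ratio of H2-D1 lay between 0.690 in dividing cells and 0.811 in cluster 13, and that of H2-K1 between 0.764 in dividing cells and 0.934 in cluster 3, which Cox6a2, Cryab and Mt2 led; all 12 intervals were under 1. Nlrc5 was higher in knockdown in all 6 clusters, at ratios from 1.14 in cluster 13 to 1.48 in cluster 3, with intervals over 1 in 5. Cluster 13, whose cells carried 8.20% mitochondrial UMIs in knockdown and 10.0% in control and were led by the noncoding Gm26917, had the highest Nlrc5, at 244 CPM in knockdown and 215 CPM in control, and the lowest H2-D1, at 807 and 995 CPM. H2-T23 was under 1 in the 5 clusters with enough UMIs, from 0.569 in cluster 4 to 0.871 in cluster 3. Its intervals were under 1 in 4 of them, and that of cluster 3 (0.739 to 1.03) included 1.

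B2m turned round within clusters: it was higher in knockdown in 5 of the 6, up to a ratio of 1.20 in cluster 13, and lower in cluster 9 (0.961), which immediate early genes such as Egr1 led. With the 6 clusters at the same weight in both libraries the ratios were 0.749 for H2-D1, 0.837 for H2-K1, 0.710 for H2-T23, 1.09 for B2m and 1.251 for Nlrc5. At that weighting H2-K1 no longer passed the mark, and B2m and Tap1 (1.06) lay above 1. Tapbp was lower in 5 clusters and higher in cluster 3 (1.11), and Psmb8 was between 0.841 and 1.04.

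**Figure D2:**
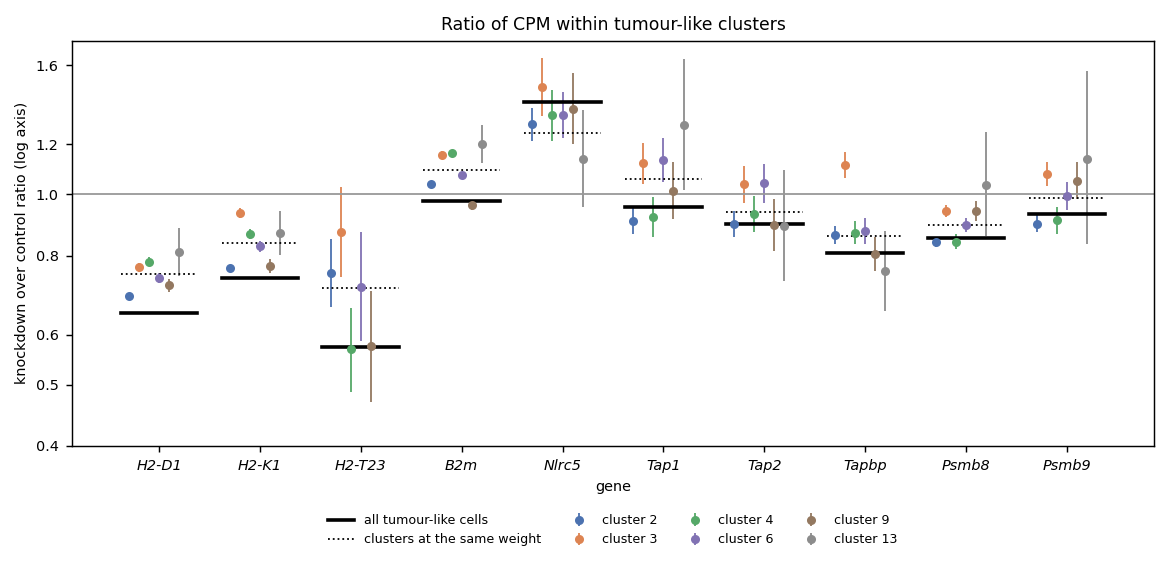
Ratio of CPM, knockdown over control (log axis), of each gene in the 6 tumour-like clusters, with exact 95% counting intervals; solid lines give all tumour-like cells and dotted lines the clusters at the same weight. H2-D1 and H2-K1 lie under 1 and Nlrc5 over 1 in every cluster, while B2m lies over 1 in 5 of 6.

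Interferon-gamma induces all 10 genes, so the libraries were also compared among tumour-like cells with a like interferon-gamma response. Each cell was thinned to 2000 UMIs and placed in 1 of 5 ranges by its UMIs of 25 interferon-gamma response genes (Gbp2, Iigp1, Irf1 and others, none of the 10); 6379 knockdown and 4270 control cells had enough UMIs, and 165 and 41 were left out. Over 10 such UMIs were held by 20.7% of knockdown and 17.9% of control cells, and none by 5.97% and 8.48%. The range without such a UMI held H2-D1 at 1062 CPM in knockdown and 1574 CPM in control, and the range over 10 at 1443 and 2264 CPM. H2-D1 thus stood higher with more interferon-gamma response in both libraries and lower in knockdown at every range, with ratios from 0.622 to 0.675. The ratio of H2-K1 lay between 0.696 and 0.796 and that of H2-T23 between 0.488, in the top range, and 0.628. Binned without thinning, the lowest range held 64 knockdown and 76 control cells, and H2-K1 was at 1.05 (0.948 to 1.16) there.

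In these ranges Nlrc5 differed most of the 10 genes between the top and the lowest range; with cells binned without thinning Tap1 did, at 9.87 times in knockdown and 9.14 times in control against 6.93 and 4.52 times for Nlrc5. Nlrc5 stood at 28.1 CPM in knockdown and 25.7 CPM in control in the lowest range and at 132 and 101 CPM in the highest, 4.68 times and 3.92 times the lowest. The ratio of Nlrc5 was 1.09 and 1.08 in the lower 2 ranges, with intervals that included 1, and 1.40, 1.33 and 1.31 in the upper 3. Tap1 in the top range was 3.54 times its lowest in knockdown and 3.74 times in control, H2-D1 1.36 and 1.44 times. B2m lay between 0.926 and 1.01. A range of a list is not a cell type, and the list's own genes differed between the libraries, as given further on.

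**Figure D3:**
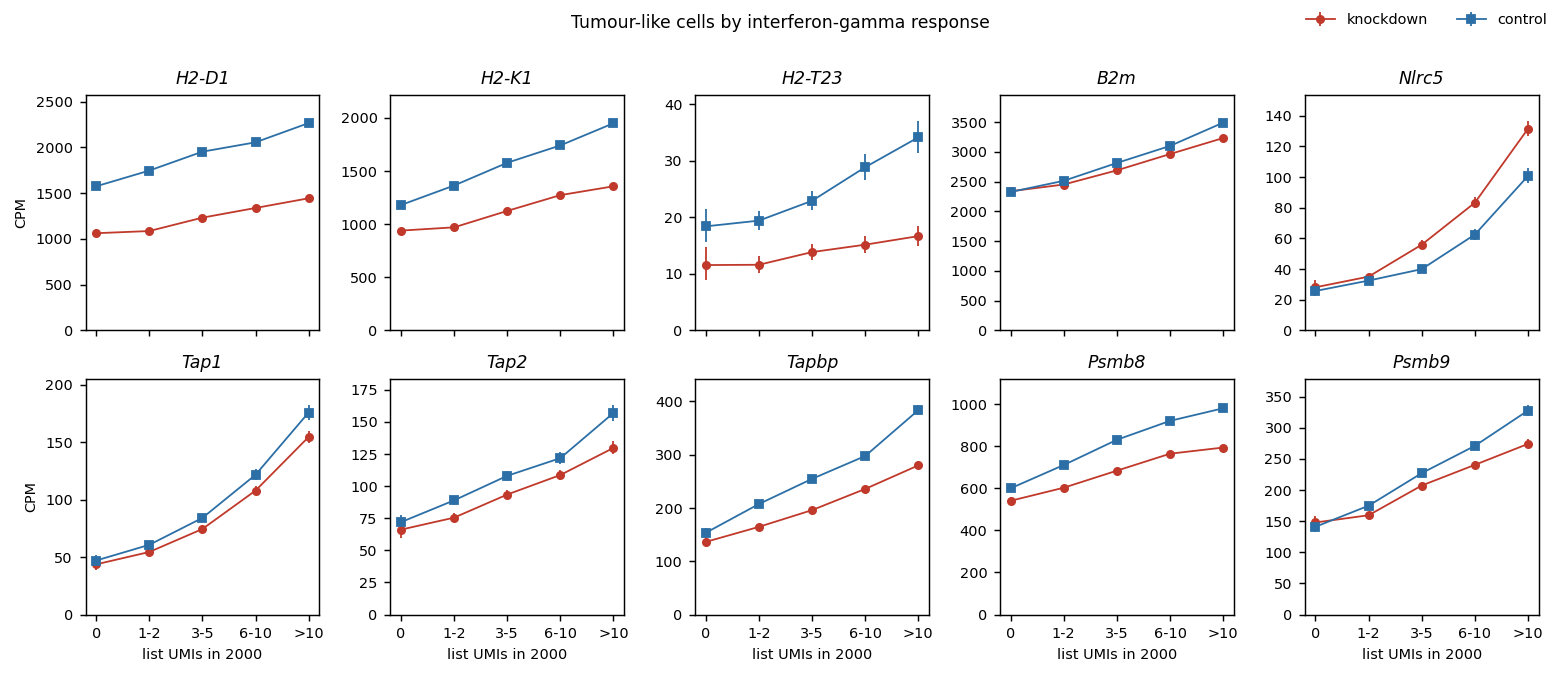
CPM of each gene in tumour-like cells (y axis, from 0) against the UMIs of 25 interferon-gamma response genes per cell thinned to 2000 UMIs (x axis), for knockdown (circles) and control (squares), with exact 95% counting intervals. All 10 genes stand higher in the top than in the lowest range in both libraries; the knockdown line lies under control for H2-D1, H2-K1 and H2-T23 throughout and over it for Nlrc5.

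The host cells of the same 2 libraries gave the levels of the 10 genes in 8 further classes. Free RNA was a larger share there than in tumour-like cells and larger in knockdown, at 12.5% of macrophage/monocyte-like UMIs in knockdown and 7.12% in control, 13.3% and 7.36% for T-like and up to 29.1% and 14.4% for neutrophil-like cells, and empty droplets, which show what the free RNA holds, had H2-D1 at 1363 CPM in knockdown and 2065 CPM in control, and Nlrc5 at 73.7 and 53.5 CPM. Cells of all classes share their library, so a direction found in several classes is not repeated evidence.

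Macrophage/monocyte-like cells, 4660 in knockdown and 4532 in control, differed mainly in Tapbp. Tapbp was at 440 CPM in knockdown and 340 CPM in control, a ratio of 1.29 (1.26 to 1.33), and over 1 in all 4 clusters of the class; it was the 1 gene of the 10 past the mark there, where 14.2% of genes were higher, 7.0% lower and 21.2% either. Among cells of 10000 to 20000 UMIs in both libraries its ratio was 1.19, short of the mark. H2-D1 was at 2102 CPM in knockdown and 2485 CPM in control, a ratio of 0.846 (0.836 to 0.856), and H2-K1 was near equal at 2008 and 2038 CPM. B2m was at 6140 CPM in knockdown and 5544 CPM in control, a ratio of 1.11 (1.10 to 1.12), and higher in all 4 clusters. Psmb8 was lower in all 4 clusters, at a ratio of 0.880 (0.862 to 0.898) over the class, and Nlrc5 was at 78.1 CPM in knockdown and 70.1 CPM in control, a ratio of 1.12 (1.04 to 1.19).

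T-like cells, 1696 in knockdown and 539 in control, had 5 of the 10 genes lower, where 13.5% of all genes were, and 1 higher, where 18.6% were, together 6 against 32.1%. Psmb8 was at 461 CPM in knockdown and 698 CPM in control, a ratio of 0.661 (0.614 to 0.712), and Psmb9 at 239 and 313 CPM, a ratio of 0.762 (0.685 to 0.849). Tap2 had a ratio of 0.699 (0.592 to 0.828), H2-T23 of 0.756 (0.678 to 0.844) and H2-D1 of 0.779 (0.747 to 0.813). Nlrc5 was at 176 CPM in knockdown and 132 CPM in control, a ratio of 1.33 (1.15 to 1.55); it was over 1 both in the Cd8a and Ifng expressing cluster 5 (log2 ratio 0.32) and in the Foxp3 expressing cluster 15 (log2 ratio 0.81), but with every cell at equal weight the ratio was 1.06. With cells thinned to 1000 UMIs it was 1.18, and H2-T23 (0.831) and Psmb9 (0.843) were then short of the mark. Cluster 5 held 1471 knockdown and 397 control cells and cluster 15 held 225 and 142. In clusters 5 and 15 in turn, Psmb8 had ratios of 0.685 and 0.652 and Psmb9 of 0.799 and 0.771. The other 3 genes each passed the mark in only 1 of these clusters. H2-D1 was at 0.859 and 0.738, Tap2 at 0.697 and 0.991, and H2-T23 at 0.770 and 0.955. The immunoproteasome to constitutive ratio was 2.49 (2.33 to 2.66) in T-like cells of knockdown and 2.94 (2.70 to 3.21) in those of control.

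The smaller classes fell on both sides. NK-like cells, 471 and 275, had Psmb8 (0.773) and Psmb9 (0.770) lower and Tapbp (1.29) higher, where 14.4% of all genes were lower, 21.2% higher and 35.6% either. With every cell at equal weight Psmb9 (0.846) and Tapbp (1.07) were short of the mark, and with cells thinned to 1000 UMIs Psmb8 was (0.841). Dendritic-like cells, 195 and 229, had H2-D1 (0.794), H2-T23 (0.7998), Psmb8 (0.773) and Psmb9 (0.700) lower, where 20.8% of all genes were, and none higher, where 15.5% were (4 against 36.3% in either direction). With free RNA subtracted H2-D1 (0.821) and H2-T23 (0.883) were short of the mark. These cells had the highest Psmb8 of all classes in both libraries, at 900 CPM in knockdown and 1164 CPM in control. Endothelial-like cells, 100 and 105, had the highest H2-D1 and H2-K1 in both libraries and Nlrc5, Tap1, Tapbp and Psmb8 higher in knockdown at ratios of 1.253 to 1.35, where 21.4% of all genes were higher, and none lower, where 18.3% were (4 against 39.7% in either direction). The intervals were over 1 for Tapbp and Psmb8, but Psmb8 was at 0.795 with cells thinned to 1000 UMIs, and Nlrc5 (1.13), Tap1 (1.23) and Tapbp (1.18) were each short of the mark under 1 or more of the alternatives. Neutrophil-like cells, 197 and 65 with 1095 and 1460 UMIs per cell, had H2-D1 (0.663) and H2-T23 (0.479) lower with intervals under 1 and Psmb8 (0.792) lower with an interval that included 1, where 31.1% of all genes were lower. Nlrc5 (1.68) and Tap2 (1.254) were higher there with intervals that included 1, where 27.7% of all genes were higher and 58.8% either, and Nlrc5 was at 0.698 among cells of at least 2000 UMIs. Fibroblast-like cells, 95 and 74, had none of the 8 genes measured past the mark, where 17.2% of all genes were higher, 23% lower and 40.1% either.

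Epidermis-like cells, 99 in knockdown and 213 in control, went the other way for most of the pathway. B2m was at 2911 CPM in knockdown and 1735 CPM in control, a ratio of 1.68 (1.55 to 1.81), H2-K1 at 1653 and 1258 CPM, a ratio of 1.31 (1.19 to 1.45), Tap1 had a ratio of 1.53 (1.09 to 2.12) and Tap2 of 1.62 (1.14 to 2.28). In all, 6 of the 10 genes were higher there, where 24% of all genes were, and 1, Psmb9, was lower, where 25.8% were (7 against 49.8% in either direction). The interval of Psmb9 (0.537 to 1.16) included 1, and its ratio was 0.964 with every cell at equal weight. With cells thinned to 1000 UMIs Tap1 (1.23), Tap2 (1.002) and H2-T23 (1.15) were short of the mark. Free RNA made up 19.4% of the UMIs of this class in knockdown and 6.59% in control, and B2m in empty droplets stood at 3580 CPM in knockdown. With free RNA subtracted at those shares the ratio of B2m was 1.71.

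**Figure D4:**
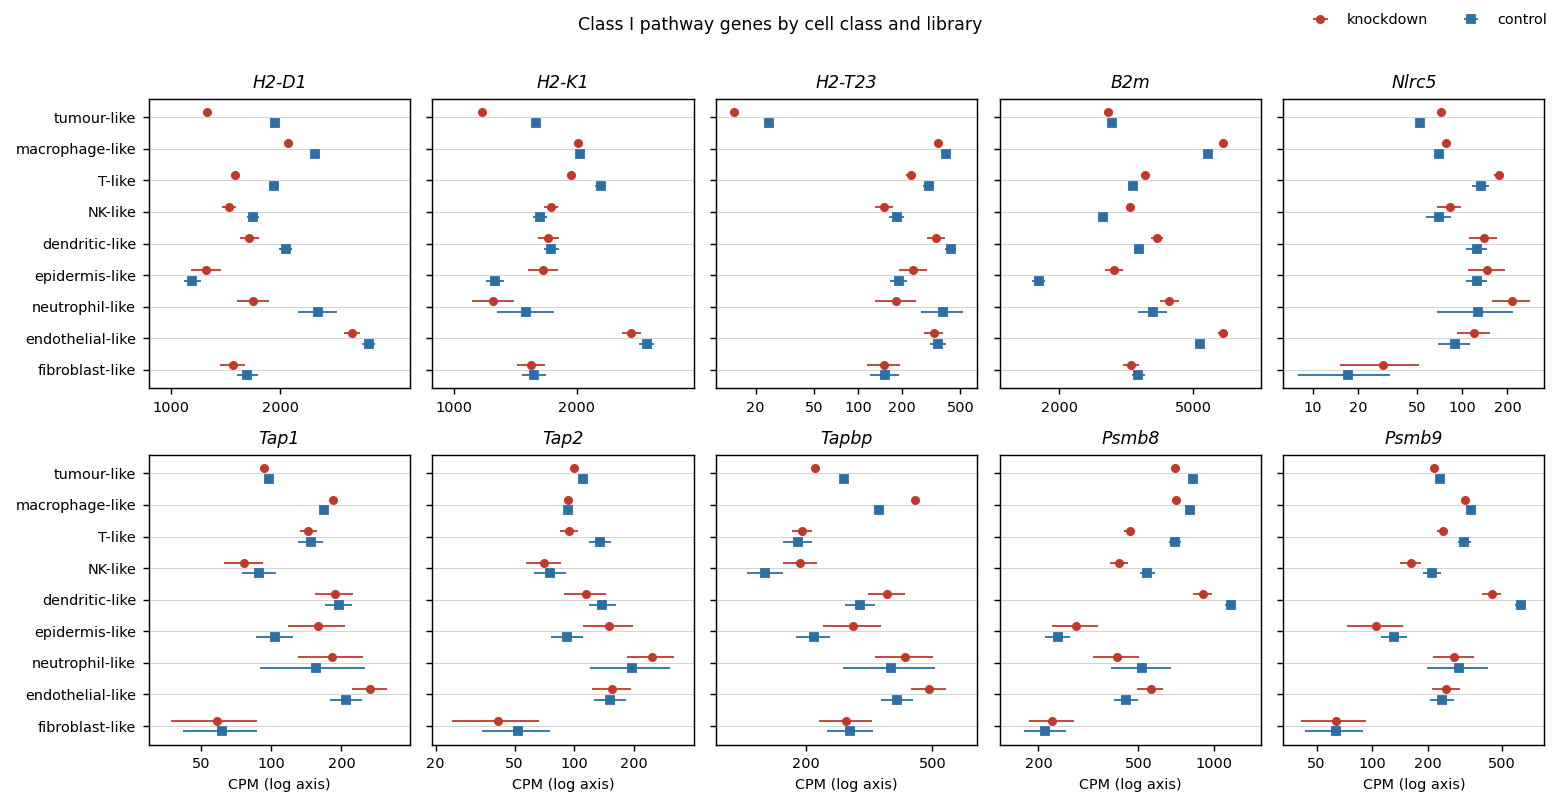
CPM (log axis) of each gene in 9 cell classes (rows) for knockdown (circles, upper in each row) and control (squares), with exact 95% counting intervals. H2-T23 stands at 14.2 and 24.7 CPM in tumour-like cells and at 151 CPM or more in every other class.

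Ordered by level, H2-D1 and H2-K1 were highest in endothelial-like cells of both libraries, and H2-K1 lowest in tumour-like cells of knockdown (1167 CPM) and in epidermis-like cells of control (1258 CPM), both with intervals that overlapped neutrophil-like cells. Tumour-like cells ranked 8 of 9 classes for H2-D1 in knockdown and 5 of 9 in control. H2-T23 ranged 24.6-fold between classes in knockdown and 17.3-fold in control, with tumour-like cells last in both; the other classes overlapped their neighbours in order, except T-like and epidermis-like cells of control. Nlrc5 was highest in neutrophil-like (213 CPM) and T-like cells of knockdown and in T-like cells (132 CPM) of control, with overlapping intervals for all neighbours down to macrophage/monocyte-like and NK-like cells, and lowest in fibroblast-like cells, at 29.2 CPM in knockdown and 17.3 CPM in control from 12 and 9 UMIs. Since 3' UMIs are not measured per length, a quotient of 2 genes' UMIs was only compared between the libraries and says nothing of which gene is expressed more.

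Over the 9 classes H2-D1 was lower in knockdown in 8, with intervals under 1 in 7, and H2-T23 in 8, with intervals under 1 in 6. B2m was higher in 7, with intervals over 1 in 6, and Tapbp in 7, with intervals over 1 in 5. Nlrc5 was over 1 in all 8 classes measured, with intervals over 1 in the 3 largest, but with every cell at equal weight it was under 1 in NK-like (0.897), dendritic-like (0.7504) and epidermis-like (0.862) cells. In the unnamed clusters 12, 17 and 19 Nlrc5 had ratios of 0.811, 0.907 and 0.640, with intervals that included 1. Per B2m UMI, H2-D1 and H2-K1 together were lower in knockdown in all classes except fibroblast-like: they were at 0.669 (0.664 to 0.675) in knockdown and 0.816 (0.810 to 0.822) in control macrophage/monocyte-like cells, and at 0.955 (0.932 to 0.979) and 1.27 (1.23 to 1.31) in T-like cells. In epidermis-like cells, where B2m stood out, they were at 0.998 (0.912 to 1.09) in knockdown and 1.39 (1.31 to 1.47) in control, and in fibroblast-like cells at 0.926 (0.857 to 1.001) and 0.930 (0.869 to 0.994).

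**Figure D5:**
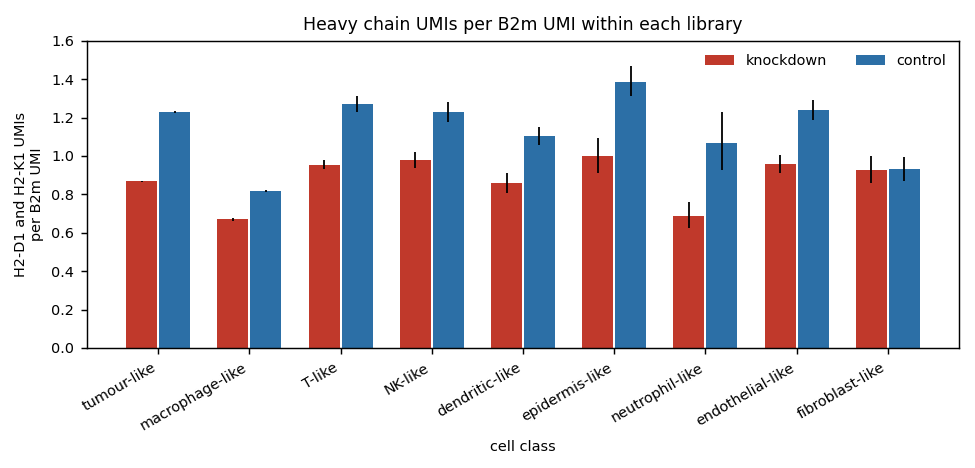
UMIs of H2-D1 and H2-K1 together per B2m UMI (y axis, from 0) in each cell class, for knockdown (left bar) and control (right bar), with exact 95% counting intervals. The knockdown bar is the lower one in 8 classes, 0.867 against 1.23 in tumour-like cells, and level with control in fibroblast-like cells.

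Most other class I heavy chains measured in tumour-like cells were also lower in knockdown. Of 17 genes listed, 15 were analysed here and 11 had at least 50 UMIs; 7 of these were lower, where 11.1% of all genes were, and 1 was higher, where 22.3% were, with a median log2 ratio of -0.49 beside 0.07 over all genes. H2-Q7 was at 325 CPM in knockdown and 457 CPM in control, a ratio of 0.710 (0.700 to 0.720), and H2-Q6 at 208 and 257 CPM, a ratio of 0.811 (0.796 to 0.826); both encode Qa-2 type molecules that can share reads with H2-D1 and H2-K1. H2-Q10, which encodes a secreted chain, had a ratio of 0.492 (0.379 to 0.635) from 91 and 190 UMIs. H2-T24 was the 1 gene higher, from 57 and 43 UMIs, a ratio of 1.36 (0.900 to 2.07). More distant chains also had ratios under 1. H2-M3, which presents formylated peptides, had a ratio of 0.815 (0.783 to 0.849), and Fcgrt, the neonatal Fc receptor, of 0.573 (0.526 to 0.623); these were picked after their values were seen. In macrophage/monocyte-like cells 3 of 11 were lower, where 7.0% of all genes were, and none higher, with a median log2 ratio of -0.22 beside 0.04 over all genes there. In T-like cells 2 of 5 were lower, where 13.5% of all genes were, with a median of -0.31 beside 0.03.

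Further genes of the pathway lay on both sides of 1. Of 9 loading and trimming genes in tumour-like cells, 1 was higher (Ide, an insulin-degrading peptidase, at 1.36), where 22.3% of all genes were. One was lower (Hspa5, the chaperone BiP, at 0.770), where 11.1% of all genes were. Calreticulin, Calr, was at 505 CPM in knockdown and 552 CPM in control. None of 8 other proteasome genes passed the mark in either direction, where 33.4% of all genes did. The activator subunit Psme2 had a ratio of 1.13, Psme3 of 1.15, the assembly factor Pomp of 1.103 and Psmb6 of 0.853. Of 9 genes for promoter factors, 8 for those that Nlrc5 works with and Ciita, the class II counterpart of Nlrc5, 1 was lower, where 11.1% of all genes were: Rfxank, a subunit of the RFX complex, at 3.52 CPM in knockdown and 5.03 CPM in control, a ratio of 0.700 (0.609 to 0.803). Its partners Rfxap (0.822) and Rfx5 (0.918), named after their values were seen, were short of the mark, and Nfyb (1.03), Nfyc (1.204) and Atf1 (1.18) lay above 1.

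Of 17 interferon and NF-kB signalling genes, 3 were higher in tumour-like cells, where 22.3% of all genes were, and none lower, where 11.1% were. The 3 were Nfkbia, the NF-kB inhibitor, at 223 CPM in knockdown and 133 CPM in control, Socs1 at a ratio of 1.26, and Ifng itself at 2.53 and 0.369 CPM from 254 and 38 UMIs. Ifng is made by T and NK cells, whose marker sums in tumour-like cells were 285 CPM in knockdown and 209 CPM in control for NK cells and are given above for T cells; their part in this value was not tested. Irf1, an interferon-induced transcription factor, had a ratio of 1.22, and Ifnar2, a chain of the type I interferon receptor, had the lowest ratio of the list, 0.804. The 25 interferon-gamma response genes included 6 higher and 2 lower, shares near the 22.3% and 11.1% of all genes. Ido1 had the highest ratio, 3.36, and Cxcl9 the lowest, at 100 CPM in knockdown and 208 CPM in control, and Gbp2 had a ratio of 1.199 and Cxcl10 of 1.04, beside a median log2 ratio of 0.14 over the list. Of 6 class II genes, which share the X and Y box promoter and are driven by Ciita, 1 was lower, where 11.1% of all genes were. It was H2-DMb1 (0.780), at 7.63 CPM in knockdown and 9.78 CPM in control. None was higher, where 22.3% of all genes were, and Cd74 (1.04), H2-Ab1 (0.956) and H2-Aa (1.05) were near equal.

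Across the 18 profiles of 9 classes in 2 libraries, the genes whose log2(CPM + 1) ran most like that of H2-K1 among 11441 were Tnfaip8l1 (Pearson r = 0.85), Ehd4 (0.85), Slc45a4 (0.84), S1pr1 (0.83) and Serpina3f (0.83), and for Nlrc5 N4bp2l2 (0.91), Ep300 (0.89), Ranbp2 (0.88), Gpbp1l1 (0.86) and Gm48678 (0.86). H2-D1 and H2-K1 had r = 0.75 with each other. The profiles share their libraries and differ in depth, so these values are a description.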

How the data were processed

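Each of the 2 libraries (1 per group) came as a matrix of UMI counts for 32285 genes by barcode, deposited by the authors and made with Cell Ranger 4, per the file headers. The genome build, the annotation and the handling of reads that match several genes are not given there; 99.6% of the gene IDs were found in GENCODE vM21. No per-sample column was left unused (0).

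Barcodes with at least 500 UMIs and 250 genes and at most 20% mitochondrial UMIs were kept if they differed from empty droplets (up to 100 UMIs) at a false discovery rate of 0.01 or held over 3000 UMIs, and 920 knockdown and 474 control doublets called by Scrublet were removed. Of all UMIs, 75.5% of knockdown and 81.2% of control lay in the kept cells. Cells were clustered (Leiden, resolution 1, 30 principal components, 15 neighbours) on 1999 variable genes, among which 0 of the 10 genes and 0 of the pathway list genes stood. A cluster was named "-like" where at least 3 markers of a type reached 20 CPM and 25% of their highest cluster, and stayed unnamed where markers of another type led its 10 leading genes or where its cells were shallow and led by none of its own; clusters with Xist under 20 CPM could be tumour-like or unnamed only. This naming rule was set after the clusters were seen.

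For every class the UMIs of a library were added up and expressed as CPM with exact Poisson intervals, and ratios (knockdown over control) with exact conditional intervals, all at 95%, for genes with at least 50 UMIs over both libraries. No test was made, and UMIs of 1 library are not replicates. Free RNA was estimated from macrophage genes (tumour genes in macrophages and dendritic cells). The sums and intervals were tested on simulated data. From each pathway list the text names the 2 genes with the highest mean CPM and those with the highest and lowest ratio, and others where said; 1 gene that this rule names is not reported here. The members and lists were chosen with earlier results of these data known. Alternatives covered scaling, depth, filters, doublets, free RNA, cell weights, thinning, the clustering seed and the fold. Promoters are RefSeq's. Python 3.11.15, numpy 2.4.6, scipy 1.17.1, pandas 2.3.3, scanpy 1.11.5, leidenalg 0.10.2 and matplotlib 3.10.9 were used.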

Additional observations from a re-analysis of the deposited data

Results flagged for a closer look

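H2-K1 and H2-T23 went in opposite directions in epidermis-like and tumour-like cells. In epidermis-like cells the ratio, knockdown over control, was 1.31 (1.19 to 1.45) for H2-K1 and 1.26 (0.966 to 1.63) for H2-T23. In tumour-like cells it was 0.737 (0.731 to 0.742) for H2-K1 and 0.574 (0.537 to 0.612) for H2-T23. The difference between the classes was not tested, since each group has 1 library. The epidermis-like class rests on 99 knockdown and 213 control cells, with free RNA at 19.4% of UMIs in knockdown and 6.59% in control, whose part in the result was not tested; H2-T23 rests on 80 and 230 UMIs there and was at 1.08 with every cell at equal weight.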

How the results depend on the processing

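No paired analysis was possible because each group holds 1 library, and no replicate could be left out for the same reason. In tumour-like cells 14 alternatives were tried. The ratio of H2-D1 lay between 0.551 and 0.749, of H2-K1 between 0.618 and 0.837, of H2-T23 between 0.416 and 0.710 and of Nlrc5 between 1.251 and 1.54, and 8 of the 10 genes stayed on 1 side of 1 in all of them. B2m (1.09) and Tap1 (1.06) lay above 1 when the tumour clusters had equal weights in both libraries. Both were lowest among cells of 10000 to 20000 UMIs, B2m at 0.852 and Tap1 at 0.823. Tumour clusters differed in depth, with medians in cluster 4 of 11107.5 UMIs in knockdown and 18220.5 in control. In cluster 2 they were 19412.5 and 34333.5 UMIs. How this window changed the mix of clusters was not tested. Among cells of 10000 to 20000 UMIs, 5 genes were lower (Tap2 at 0.794 and Tapbp at 0.658 joined the 3 heavy chains). The share of all genes that were lower in this window is not given, so these 5 are not set against all genes. This depth-matched setting was run for tumour-like and macrophage/monocyte-like cells only. At a fold of 1.5, 0 of the 10 genes were higher and 2 lower (H2-D1 and H2-T23) in tumour-like cells. No share of all genes is given at that fold, so this count is not set against all genes. In classes of few cells, Nlrc5 turned to 0.698 in neutrophil-like cells of at least 2000 UMIs and Psmb8 to 0.795 in endothelial-like cells thinned to 1000 UMIs; the cause was not tested. Of 140 ratios in tumour-like cells under other settings, 50 lay outside the counting interval of the reported value, as did 68 of 800 in the other classes. Binning by interferon-gamma response without thinning gave ratios from 0.619 to 0.861 for H2-D1, 0.686 to 1.05 for H2-K1, 0.926 to 1.20 for B2m and 0.890 to 1.37 for Nlrc5. Leaving out cluster 13, adding cluster 7 and adding clusters 12 and 19 were chosen after seeing the data.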

Other observations

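Cells left out of the named classes also held UMIs of the pathway. Cluster 7, led by the muscle gene Acta1, held 1377 knockdown and 162 control cells with median depths of 912 and 3742 UMIs. Its H2-K1 was at 1202 CPM in knockdown and 726 CPM in control, a ratio of 1.66 (1.505 to 1.82), and its B2m had a ratio of 1.38 (1.30 to 1.45). Empty droplets held more H2-K1, 1485 CPM in knockdown and 1899 CPM in control. The free RNA share of cluster 7 was not estimated, and its part in these ratios was not tested. Cluster 17, led by Col12a1, Rgs5 and Postn, had Tapbp at 541 CPM in knockdown and 382 CPM in control, a ratio of 1.42 (1.24 to 1.61). Cluster 19, led by Retnla and Ccl6, had H2-T23 at a ratio of 0.645 (0.496 to 0.836) and Psmb9 at 0.613 (0.437 to 0.852). Mast and basophil-like cells, 44 in knockdown and 65 in control and so under the minimum of 50, had H2-D1 at a ratio of 0.587 (0.520 to 0.661) and H2-T23 at 2.77 (2.03 to 3.77).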
